A study of Mus musculus with 35 samples.

Results

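The lungs of mice given 54 µg of the nanomaterial NRCWE-045 were compared with the lungs of mice given 54 µg of the nanomaterial NRCWE-044, 1 day after a single instillation. The comparison holds 10 of the 35 arrays of the series, 5 for each material, taken by their titles. All were female C57BL/6 mice of 5 to 7 weeks, kept on a daily light and dark cycle, and each received 1 dose into the trachea in 40 µl of suspension. Lungs were taken after 24 h, and RNA came from random sections of the tissue. The same 2 materials were also given at 18 µg, with 5 arrays each, and those arrays served as a second comparison that shares no array with the first. The series further holds 5 control arrays labelled 0 µg and 10 arrays of a further material, NRCWE-043. The labels do not say what the controls received, do not state that arrays of a group came from separate mice, and do not give the hour of the day at which a lung was taken. The p-values below therefore measure the spread between these arrays, which may in part be technical. Both materials are known here only by their code names.

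An inhaled or instilled particle that reaches the alveoli is met by resident macrophages and epithelial cells, which release chemokines and acute phase proteins within hours and draw in neutrophils and monocytes. The lung also carries its own molecular clock. In that clock ARNTL (BMAL1) and CLOCK switch on genes through E-boxes, the products of Per, Cry, Nr1d1 and Nr1d2 feed back on them, and the output factors DBP, TEF and NFIL3 act on D-boxes. Genes of the 2 arms of this loop peak at opposite times of day.

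Each array measured lung RNA, labelled with Cy5, against a universal mouse reference RNA made from cell lines and labelled with Cy3, so every level below is a log2 ratio of lung to reference. A difference is the mean log2 ratio with NRCWE-045 minus that with NRCWE-044, with its standard error (SE), and 1 unit is 2-fold. On the 10 arrays, 42.9% to 69.3% of probes lay well above background in Cy5, the median Cy5 signal ran from 92 to 230, and no spot was saturated. Among the arrays at 18 µg, replicate 23 of NRCWE-044 had a median Cy5 signal of 345.5, the highest of all 35 arrays. It also had the most probe values missing for spots marked as outliers, 829. The number of arrays limits the precision. After the filter on dim probes 25534 features were tested, 15621 of them with a gene symbol, and the median SE of a difference was 0.13. Lung markers were high on all 10 arrays. The mean log2 ratio over 15 alveolar type 2 genes ran from 4.92 to 5.61 with NRCWE-044 and from 4.94 to 5.39 with NRCWE-045.

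Markers of tissues next to the lung were high on some arrays. The mean over 16 adipose genes was 4.05 and 3.43 on replicates 4 and 34 of NRCWE-044 and between 0.72 and 1.16 on the other 8 arrays. The mean over 16 heart muscle genes was 1.78, 2.06 and 0.75 on replicates 4, 18 and 34 of NRCWE-044 and 2.03 on replicate 32 of NRCWE-045, against at most 0.38 elsewhere. Adiponectin (Adipoq), a hormone of fat cells, stood at 5.41 and 5.08 on those 2 arrays of NRCWE-044 and at most at 0.17 on the others. The cardiac troponin gene Tnnt2 stood at 1.79 and 2.06 on replicates 4 and 18 of NRCWE-044 and at 1.75 on replicate 32 of NRCWE-045. Replicates 8, 14, 28, 32 and 35 are the arrays of NRCWE-045 and replicates 4, 18, 24, 31 and 34 those of NRCWE-044, and values are given in that order below. Of these, 4 pairs lay on a slide together: 8 with 4, 14 with 18, 32 with 31 and 35 with 34.

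With the spread estimated from all 35 arrays, no feature passed an adjusted p of 0.05 between the materials at 54 µg (0% of 25534, limma's moderated test with Benjamini-Hochberg adjustment). The smallest adjusted p was 0.055, and among the genes described here Tspan4, Nr1d2 and Ephx1 had that value. Without adjustment 1542 features (6.04%) had p under 0.05, 852 higher with NRCWE-045 (3.34%) and 690 lower (2.7%), and whatever the p, 50% of estimates lay above 0 and 50% below. The 5 arrays of one material did not overlap the 5 of the other for 395 features (1.55%). The 95% interval of the difference lay within 2-fold either way for 24959 features (97.7%) and within 1.5-fold for 22073 (86.4%). The count of 0 moved with the arrays and settings used in the fit. It was 33 (23 higher) when the 10 arrays were fitted alone, 29 when the controls were left out, 65 with array weights and 18 with slide as a random block. It was 12 without replicate 14 of NRCWE-045 and 1 without replicate 31 of NRCWE-044.

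At 18 µg the same comparison called 114 features (0.446%), 92 higher (0.36%) and 22 lower (0.0862%) with NRCWE-045. Whatever the p, 58.2% of estimates lay above 0 and 41.8% below, and the groups did not overlap for 2.41% of features. Of these 114, 102 (89.5%) had the same sign at 54 µg, against 60% of all features, and 59 (51.8%) had an unadjusted p under 0.05 there. The difference between the doses was itself tested. No feature passed for it in limma's adjusted test, and 1145 (4.48%) had an unadjusted p under 0.05, 1.42% with a higher value of NRCWE-045 minus NRCWE-044 at 54 µg than at 18 µg and 3.07% with a lower one. Leaving out single arrays moved the count at 18 µg between 30, without replicate 27 of NRCWE-045, and 156, without replicate 21 of NRCWE-044. The other arrays whose removal moved it by over 1.5 times were replicates 1, 12, 13 and 25 of NRCWE-045 and replicates 6 and 23 of NRCWE-044, with 60, 52, 62, 68, 39 and 71 calls.

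The 24 genes with the largest differences at 54 µg among those with separated groups, 12 each way, included 7 of the clock: Dbp, Nr1d2, Nr1d1, Per3, Tef, Arntl and Nfil3. All 24 had the same sign at 18 µg (60% of all features did). There, 15 had an unadjusted p under 0.05 (13.1% of all features did) and 10 passed the adjusted test (0.446%). Those 10 were Dbp, Nr1d2, Per3, Tspan4 and Adamts1, higher with NRCWE-045, and Arntl, Spon2, Scd1, Cdkn1a and Nfil3, lower. The genes differ in how the 2 doses relate. Clock genes, Tspan4, Spon2 and Scd1 lay near or beyond the line of equal differences, while Serpina3n, Cxcl5, Mki67, Gsta2 and Neu2 differed by 0.20 or less either way at 18 µg.

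**Figure D1:**
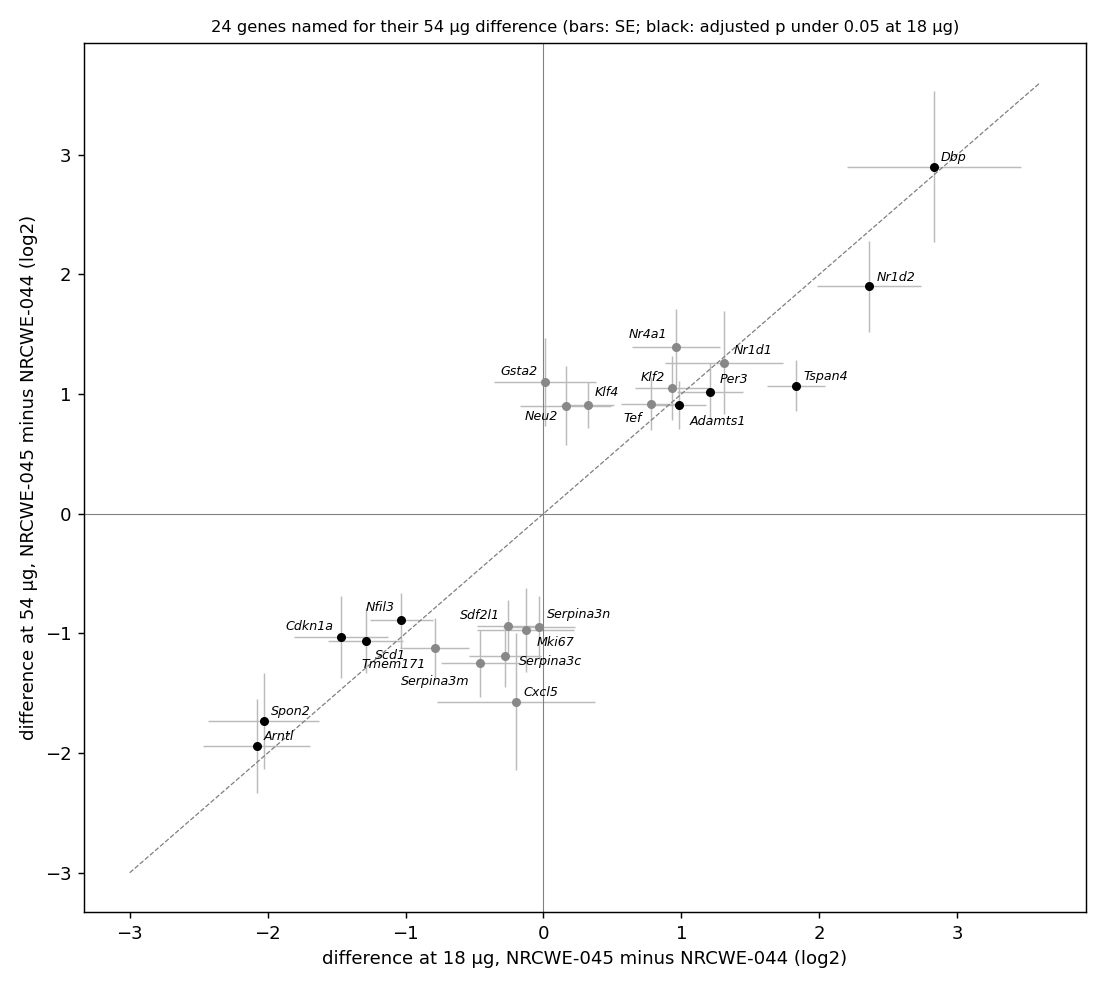
Difference between NRCWE-045 and NRCWE-044 in log2 units at 18 µg (horizontal) and 54 µg (vertical) for the 24 genes with the largest separated differences at 54 µg; bars are SE, black points passed the adjusted test at 18 µg and the dashed line marks equal differences. Dbp (2.83 and 2.90) and Arntl (-2.08 and -1.94) lie near the line, and Gsta2 (0.01 and 1.1) and Serpina3n (-0.03 and -0.95) lie off it.

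Among genes with separated groups, Dbp had the largest difference. It encodes a PAR bZIP factor whose RNA swings widely over the day. Its log2 ratio with NRCWE-045 was 0.16, -0.34, 0.35, 1.63 and 1.27, and with NRCWE-044 it was -2.03, -1.87, -2.53, -2.88 and -2.12. Every array of NRCWE-045 lay above every array of NRCWE-044, by 2.90 on average (SE 0.63, 95% interval 1.62 to 4.18, 7.47-fold, adjusted p = 0.09). At 18 µg the difference was 2.83 (SE 0.63) with an adjusted p of 0.033. Against the 5 controls Dbp was lower with NRCWE-044 at 54 µg (-2.57, adjusted p = 0.011), and the value for NRCWE-045 was 0.33 (adjusted p = 0.96), with the controls shared by both. The controls themselves ran from -2.67 to 2.71.

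Nr1d2, which encodes the haem receptor and repressor REV-ERBβ, stood at 0.74, 0.69, 1.03, 1.29 and 1.15 with NRCWE-045. With NRCWE-044 it stood at -0.40, -0.37, -1.51, -1.40 and -0.90, and every array of NRCWE-045 was the higher. The difference was 1.90 (SE 0.38, adjusted p = 0.055), and at 18 µg it was 2.36 (SE 0.38, adjusted p = 0.0019). Its relative Nr1d1, encoding REV-ERBα, differed by 1.26 (SE 0.43, adjusted p = 0.58) with separated groups at both doses. Per3, a period gene, stood at 0.73, 0.71, 1.15, 1.11 and 1.12 against -0.05, 0.12, -0.44, 0.15 and -0.06, a difference of 1.02 (SE 0.24, adjusted p = 0.13). At 18 µg Per3 rose by 1.21 (SE 0.24, adjusted p = 0.016) with NRCWE-045 over NRCWE-044. Tef, another PAR bZIP factor, differed by 0.92 (SE 0.22, adjusted p = 0.13). Per1 differed by 0.83 (SE 0.21, adjusted p = 0.18) and its groups overlapped, since replicate 31 of NRCWE-044 stood at 1.96 and replicate 32 of NRCWE-045 at 1.88.

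The opposite arm ran the other way. Arntl, the gene of BMAL1, stood at -1.31, -1, -1.30, -2.12 and -1.26 with NRCWE-045 and at -0.06, 0.18, 1.09, 0.87 and 0.63 with NRCWE-044. All arrays of NRCWE-045 were the lower ones. The difference was -1.94 (SE 0.39, adjusted p = 0.063) and at 18 µg -2.08 (SE 0.39, adjusted p = 0.0092). Nfil3, a repressor that competes with DBP for D-boxes, differed by -0.89 (SE 0.23, adjusted p = 0.18) with separated groups, and at 18 µg by -1.03 (SE 0.23, adjusted p = 0.034).

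**Figure D2:**
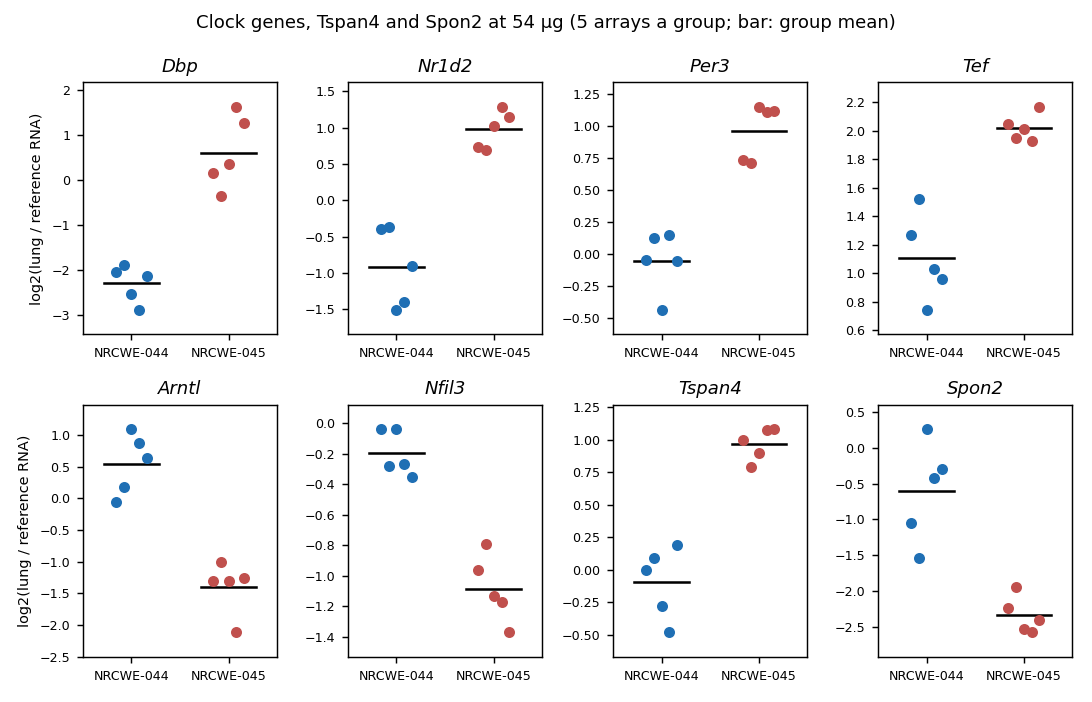
Log2 ratio of lung to reference RNA on each of the 5 arrays of NRCWE-044 (blue) and NRCWE-045 (red) at 54 µg for 6 clock genes, Tspan4 and Spon2, with bars at the group means. The 2 groups do not overlap in any of the 8 panels, and Arntl, Nfil3 and Spon2 are lower with NRCWE-045.

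Over the whole arm that peaks with Dbp, 11 of 12 measured genes were higher with NRCWE-045 at 54 µg, 10 with an unadjusted p under 0.05 (background 3.34%) and 8 with separated groups (background 0.967%). None passed the adjusted test at 54 µg, and 4 passed as higher at 18 µg (background 0.36%). The median difference was 0.86, against 0 over all features, and 0.72 at 18 µg. In the arm that peaks with Arntl 4 of 5 measured genes were lower, all 4 with an unadjusted p under 0.05 (background 2.7%), with a median of -0.37. Leaving out any one of the 10 arrays left 10 genes of the first arm with an unadjusted p under 0.05. On the 4 shared slides the mean of the first arm differed by 0.73, 0.66, 1.12 and 1.27.

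A clock score, the mean of the first arm minus that of the second, placed the groups side by side. It ran from 0.81 to 1.60 with NRCWE-045 at 54 µg and from -0.67 to -0.26 with NRCWE-044. At 18 µg it ran from 0.74 to 1.5 and from -0.83 to -0.22. Both doses of NRCWE-043 gave scores from 1.21 to 2.22. The controls spread from -0.58 to 2.22, wider than any treated group. With this score as a covariate, an alternative added after the data were seen, the count at 18 µg was 1 in place of 114 and that at 54 µg was 0. The score did not overlap between the materials at either dose, and it was made from genes among those 114, such as Dbp and Arntl. That fit therefore could not cleanly separate the score from the material. The hour at which each lung was taken could not be set beside these values, and its part in them was not tested.

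**Figure D3:**
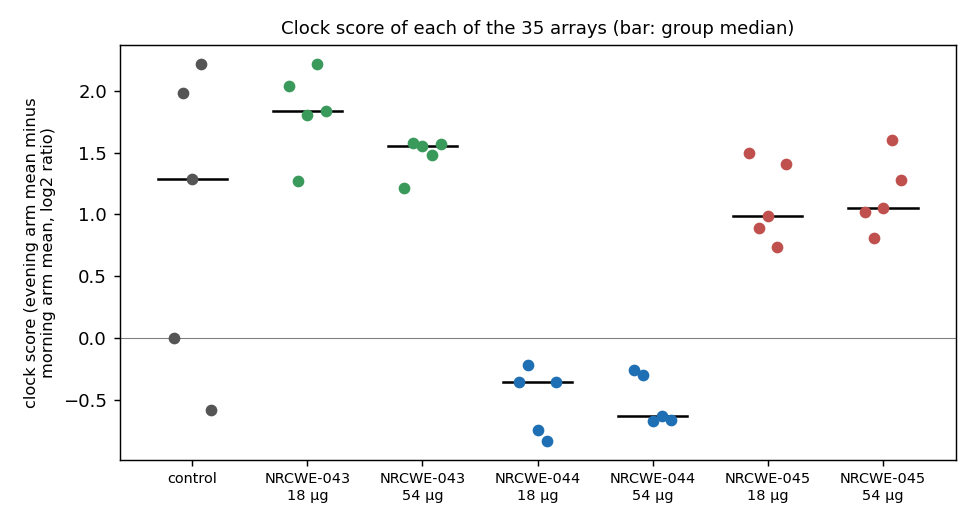
Clock score (mean log2 ratio of 12 genes of the evening arm minus that of 5 genes of the morning arm) on each of the 35 arrays, by group, with bars at the group medians. Both NRCWE-044 groups lie below 0, at -0.83 to -0.22, both NRCWE-045 groups lie at 0.74 to 1.60, and the controls run from -0.58 to 2.22.

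Promoter sequence of these genes holds letters that clock factors are known to bind. The windows below are the 250 bases before the RefSeq start site (GRCm38.p6), and are shown because they hold the motif of the arm to which the gene belongs. Capitals mark CACGTG (an E-box), TTATGTAA or TTATGCAA (D-boxes) and TAGGTCA (a ROR element), searched on both strands, so that TGACCTA is TAGGTCA read from the other strand. Per1 lies at chr11:69098699-69098948 on the plus strand, Per3 at chr4:151044666-151044915 on the minus strand and Nfil3 at chr13:52981040-52981289 on the minus strand.
Per1: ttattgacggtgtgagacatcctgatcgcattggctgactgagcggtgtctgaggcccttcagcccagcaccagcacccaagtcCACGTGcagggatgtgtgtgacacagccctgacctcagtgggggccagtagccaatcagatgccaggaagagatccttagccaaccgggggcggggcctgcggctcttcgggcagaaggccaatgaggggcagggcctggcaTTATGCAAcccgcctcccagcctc
Per3: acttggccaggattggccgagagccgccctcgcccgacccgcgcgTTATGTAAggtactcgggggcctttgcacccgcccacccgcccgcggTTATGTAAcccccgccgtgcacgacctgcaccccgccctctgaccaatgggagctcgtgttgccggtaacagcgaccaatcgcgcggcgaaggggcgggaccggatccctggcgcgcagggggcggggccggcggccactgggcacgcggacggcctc
Nfil3: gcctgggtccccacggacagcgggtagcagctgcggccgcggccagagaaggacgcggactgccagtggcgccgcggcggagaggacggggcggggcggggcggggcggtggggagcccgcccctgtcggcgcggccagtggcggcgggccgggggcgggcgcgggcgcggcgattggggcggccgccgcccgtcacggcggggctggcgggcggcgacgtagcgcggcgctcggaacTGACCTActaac

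Per1 held CACGTG 166 bases and TTATGCAA 24 bases before its start. Per3 held TTATGTAA at 205 and 158 bases before, and Nfil3 held the ROR element 12 bases before. Among all 32851 windows 6.02% held CACGTG, 0.819% TTATGTAA, 0.694% TTATGCAA and 2.23% TAGGTCA. Of 12 genes of the evening arm 11 had a window, and CACGTG lay in 5 of their 13 windows (38.5%). TTATGTAA and TTATGCAA each lay in 1 of those windows (7.69%), of Per3 and Per1. In the morning arm CACGTG and TAGGTCA each lay in 1 of 8 windows (12.5%), of Cry1 and Nfil3. The windows of Dbp, Nr1d2 and Nr1d1 held none of these motifs, which says only that the letters are not within those bases.

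Among genes not on the clock lists, Tspan4, a tetraspanin of the plasma membrane, was separated at both doses. It stood at 1.00, 0.79, 0.90, 1.07 and 1.08 with NRCWE-045 and at 0, 0.09, -0.28, -0.48 and 0.19 with NRCWE-044. No array of one group reached the range of the other. The difference was 1.07 (SE 0.21, adjusted p = 0.055), and at 18 µg it was 1.83 (SE 0.21, adjusted p = 8e-06). Against the controls Tspan4 rose with NRCWE-045 at 54 µg (0.92, adjusted p = 0.039), and the value for NRCWE-044 was -0.15 (adjusted p = 0.78). Spon2, an extracellular matrix protein with a part in innate immunity, stood at -2.24, -1.94, -2.53, -2.58 and -2.40 against -1.05, -1.54, 0.26, -0.42 and -0.29. Its difference was -1.73 (SE 0.40, adjusted p = 0.11) and at 18 µg -2.03 (SE 0.40, adjusted p = 0.013). With 1 array left out, the 54 µg difference of Tspan4 ran from 0.97 to 1.14 and that of Spon2 from -1.96 to -1.51. Over all alternative settings they ran from 0.12 to 1.35 and from -2.26 to -0.17.

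Adamts1, a secreted protease of the matrix, differed by 0.91 (SE 0.20, adjusted p = 0.089) and passed the test at 18 µg (0.98, SE 0.20, adjusted p = 0.016). Scd1, the desaturase that makes oleic acid, was lower on every array of NRCWE-045, with a highest value of 3.12 against a lowest of 3.39. It differed by -1.06 (SE 0.27, adjusted p = 0.18), and at 18 µg by -1.29 (adjusted p = 0.023). Lpl, lipoprotein lipase, differed by -0.53 (SE 0.12, adjusted p = 0.11), and at 18 µg by -0.61 (adjusted p = 0.017). Tmem171, a membrane protein, differed by -1.12 (SE 0.25, adjusted p = 0.11) with separated groups at both doses. Cdkn1a, the cell cycle inhibitor p21, differed by -1.03 (SE 0.34, adjusted p = 0.51) on its brighter probe and by -0.10 on its other probe.

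Immediate early and stress factors, which cells transcribe within minutes of a signal, tended higher with NRCWE-045. Of 18 measured, 14 were higher, 9 with an unadjusted p under 0.05 (background 3.34%) and 7 with separated groups (background 0.967%), and the median difference was 0.39. At 18 µg the median was 0.12 and 3 had an unadjusted p under 0.05 (background for higher features 8.57%). Nr4a1, a nuclear orphan receptor, stood at 0.31, -1.19, -1.02, -0.11 and 0.70 against -1.34, -1.76, -1.39, -1.96 and -1.79. The separation was narrow for replicates 14 and 28, and the difference was 1.39 (SE 0.32, adjusted p = 0.11). Klf2, a factor of flow-sensing endothelium, differed by 1.05 (SE 0.27, adjusted p = 0.19) with separated groups at both doses. Klf4 stood at 2.38, 2.38, 2.40, 1.92 and 2.23 against 1.35, 1.33, 1.24, 1.88 and 0.93, a difference of 0.91 (SE 0.19, adjusted p = 0.083), and at 18 µg it differed by 0.32 (adjusted p = 0.49). Maff, a small MAF factor, differed by 0.62 (SE 0.14, adjusted p = 0.11).

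Enzymes of detoxification were higher with NRCWE-045 in a few cases. Ephx1, microsomal epoxide hydrolase, stood at 0.92, 0.67, 1.02, 1.19 and 1.43 against 0.14, 0.37, 0.30, 0.43 and 0.21. No array overlapped, and the difference was 0.75 (SE 0.15, adjusted p = 0.055). Against the controls Ephx1 fell with NRCWE-044 (-1.14, adjusted p = 2.4e-05), and the value for NRCWE-045 was -0.39 (adjusted p = 0.30). Gsta2, a glutathione transferase, differed by 1.1 (SE 0.37, adjusted p = 0.51) with separated groups and by 0.01 at 18 µg. Against the controls it fell with NRCWE-044 (-1.84, adjusted p = 0.0018), beside -0.74 (adjusted p = 0.53) with NRCWE-045. The medians of the lists around them were -0.04 for NRF2 target and redox genes and -0.03 for xenobiotic enzymes. Of these lists 2 of 19 and 1 of 16 genes were higher with an unadjusted p under 0.05 (background 3.34%), Gsta2 and Ephx1 among them. Hmox1, haem oxygenase and a sensitive NRF2 target, differed by -0.23 (SE 0.32, 95% interval -0.87 to 0.41). Neu2, a sialidase, differed by 0.90 (SE 0.33, adjusted p = 0.64) with separated groups.

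Most inflammation genes had lower estimates with NRCWE-045 at 54 µg, none passed the adjusted test, and few had separated groups. Acute phase serpins were among those that did. Serpina3n, an inhibitor of proteases of neutrophils and mast cells, stood at 3.66, 4.02, 3.93, 3.88 and 2.30 with NRCWE-045 and at 4.36, 4.32, 4.63, 4.34 and 4.90 with NRCWE-044. Replicate 35 was far below the other 4, which were still below all of NRCWE-044. The difference was -0.95 (SE 0.26, adjusted p = 0.26), beside -0.03 at 18 µg. A further serpin of the cluster, Serpina3f, differed by -0.22 (SE 0.29, adjusted p = 0.99) at 54 µg and was higher with NRCWE-045 at 18 µg (1.31, adjusted p = 0.034). Serpina3c differed by -1.19 (SE 0.26, adjusted p = 0.089) and Serpina3m by -1.25 (SE 0.28, adjusted p = 0.11), both with separated groups. Against the controls, Serpina3m rose with NRCWE-044 by 2.23 (adjusted p = 2.4e-05), beside 0.99 (adjusted p = 0.12) with NRCWE-045.

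Saa3, serum amyloid A of the lung epithelium and macrophages, spread too widely for such a difference to be resolved. Its log2 ratios were 2.91, 4.65, 1.52, 2.47 and -0.58 against 4.01, 3.20, 5.40, 4.11 and 5.59. The groups overlapped, and the difference was -2.27 (SE 0.99, 95% interval -4.29 to -0.25, adjusted p = 0.74). Within slides it ran from -6.17, for replicate 35 against 34, to 1.45, for replicate 14 against 18. Saa3 rose against the controls with both materials, by 7.03 with NRCWE-044 (adjusted p = 5e-05) and 4.77 with NRCWE-045 (adjusted p = 0.032). Saa1 differed by -1.71 (SE 0.59) and Saa2 by -1.38 (SE 0.44), with overlapping groups. Lcn2, lipocalin, which withholds iron from bacteria, differed by -0.32 (SE 0.35). Of 20 acute phase genes 18 were lower (50% of all features were), 9 with an unadjusted p under 0.05 (background 2.7%) and 2 with separated groups (background 0.58%), with a median of -0.31. The count of 9 became 5 without replicate 34 of NRCWE-044 and 6 without replicate 35 of NRCWE-045. All features at that level, in either direction, went from 1542 to 1111 and 1023.

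Chemokine estimates were also mostly lower, with wide spread. Ccl8, a ligand for monocytes and T cells, stood at 2.54, 3.35, 2.62, 3.56 and 1.29 against 4.56, 3.92, 3.35, 3.47 and 4.53. Replicate 32 of NRCWE-045 was above replicates 24 and 31 of NRCWE-044, and the difference was -1.30 (SE 0.37, adjusted p = 0.31), beside 0.55 at 18 µg. Ccl2 differed by -0.86 (SE 0.39), Ccl7 by -0.79 (SE 0.41), Ccl9 by -0.92 (SE 0.32) and Ccl24, an eosinophil attractant, by -1.69 (SE 0.66). Against the controls Ccl2 and Ccl7 passed the test with both materials, by 2.85 and 3.22 with NRCWE-044 and 2.00 and 2.43 with NRCWE-045. Over the CC chemokines 11 of 13 were lower, 6 with an unadjusted p under 0.05 (background 2.7%), with a median of -0.79. At 18 µg 11 of 13 were higher (58.2% of all features were), 4 with an unadjusted p under 0.05 (background 8.57%), with a median of 0.51, and Ccl12 passed the adjusted test (1.04, adjusted p = 0.043). The 6 became 2 without replicate 35 of NRCWE-045 and 3 without replicate 34 of NRCWE-044. Over all features, in either direction, 1542 became 1023 and 1111.

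Cxcl5, a neutrophil attractant of alveolar epithelium, stood at -1.38, -1.06, -1.27, -2.26 and -1.53 against -0.78, 0.13, 0.63, 0.04 and 0.33. All arrays of NRCWE-045 were lower, by 1.57 on average (difference -1.57, SE 0.57, adjusted p = 0.61). Cxcl3 also had separated groups (-0.62, SE 0.16, adjusted p = 0.20), though it lay well above background on only 2 and 4 of the 5 arrays of NRCWE-045 and NRCWE-044. Cxcl1 differed by -0.25 (SE 0.40), with overlap. Cxcl10, an interferon-induced ligand of CXCR3, differed by -1.11 (SE 0.47), or by -0.67 without replicate 35 of NRCWE-045, and Cxcl13, the B cell attractant, by -1.78 (SE 0.42, adjusted p = 0.12). Cxcl13 was highest on replicates 4 and 34 of NRCWE-044, at 3.48 and 4.71, the 2 arrays with adipose markers. The cytokines Il1b (-0.09, SE 0.29, 95% interval -0.68 to 0.49) and Il6 (-0.11, SE 0.27, 95% interval -0.66 to 0.43) gave values near 0.

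**Figure D4:**
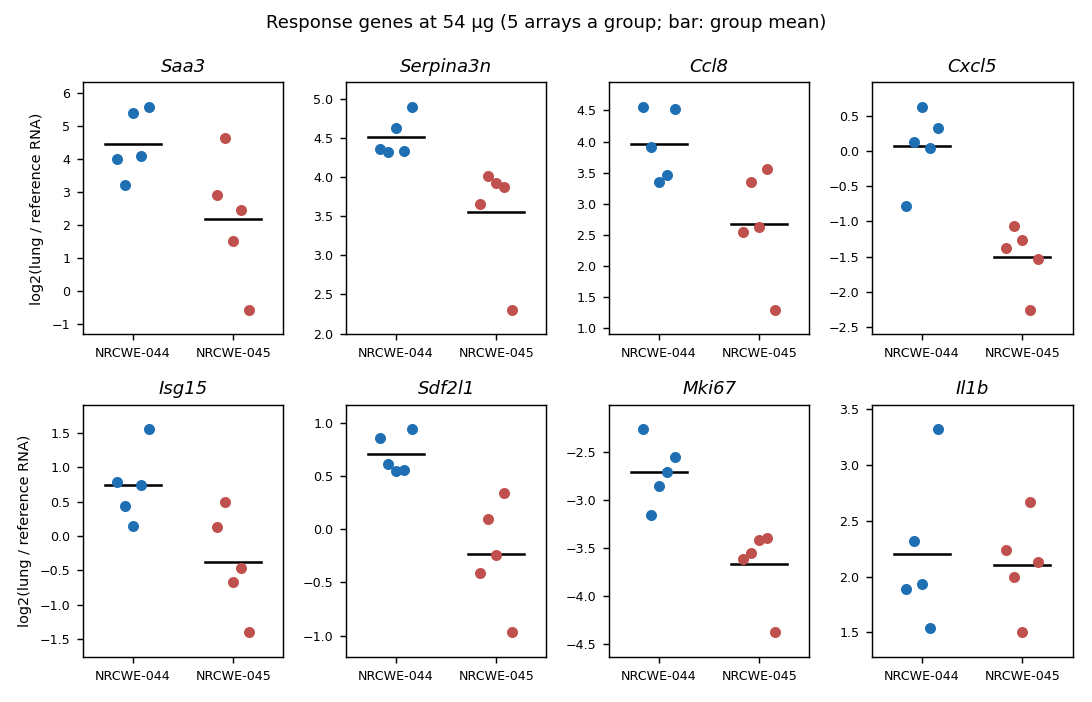
Log2 ratio of lung to reference RNA on each of the 5 arrays of NRCWE-044 (blue) and NRCWE-045 (red) at 54 µg for 8 response genes, with bars at the group means. Serpina3n, Cxcl5, Sdf2l1 and Mki67 do not overlap between the groups, and Saa3, Ccl8, Isg15 and Il1b do; 1 array of NRCWE-045 (replicate 35) is the lowest for Saa3 (-0.58) and Isg15 (-1.40).

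All 30 measured genes of the interferon response had lower estimates with NRCWE-045, 17 with an unadjusted p under 0.05 (background 2.7%) and 2 with separated groups (background 0.58%), with a median of -0.46. At 18 µg 26 of 30 were above 0, against 58.2% of all features, and the median was 0.26. For 23 of 30 the difference between the doses had an unadjusted p under 0.05 and a negative sign (background 3.07%), and none passed the adjusted test. Isg15, a ubiquitin-like protein, stood at 0.13, 0.50, -0.67, -0.47 and -1.40 against 0.79, 0.44, 0.15, 0.74 and 1.55, a difference of -1.12 (SE 0.35, adjusted p = 0.43). Ifit1, a sensor of viral RNA, differed by -0.79 (SE 0.23, adjusted p = 0.37), Oasl1 by -0.88 (SE 0.28) and Irf7, the factor that amplifies interferon production, by -0.75 (SE 0.24). Against the shared controls 23 of 30 genes passed as higher with NRCWE-044 (5.98% of all features passed either way) and 0 with NRCWE-045 (0.325%), with medians of 0.89 and 0.47. The 17 became 11 without replicate 35 of NRCWE-045 and 12 without replicate 34 of NRCWE-044. On the slide these 2 shared, the mean of the list differed by -1.25, against -0.42, -0.05 and -0.28 on the other 3. With replicates 4, 18 and 34 of NRCWE-044 left out, 1 gene had an unadjusted p under 0.05. All features at that level, in either direction, numbered 1542 in the main fit. They numbered 1023 without replicate 35, 1111 without replicate 34 and 762 without replicates 4, 18 and 34.

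The promoter of Isg15 is shown as an example of this group, with the core of the interferon-stimulated response element, GAAA and a second GAAA 2 bases on, in capitals (3 overlapping copies, the first 78 bases before the start). It lies at chr4:156200819-156201068 on the minus strand (RefSeq, GRCm38.p6).
Isg15: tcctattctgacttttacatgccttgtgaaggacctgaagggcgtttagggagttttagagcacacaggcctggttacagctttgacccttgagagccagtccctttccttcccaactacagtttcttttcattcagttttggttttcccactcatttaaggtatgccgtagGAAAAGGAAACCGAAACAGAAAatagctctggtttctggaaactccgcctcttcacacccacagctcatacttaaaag

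Of the 32 genes on the interferon list 23 had a RefSeq window, and that core, searched on both strands, lay in 12 of their 26 windows (46.2%), against 2.98% of all windows.

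Genes of cell division had lower estimates in all 23 cases measured, 15 with an unadjusted p under 0.05 (background 2.7%) and 6 with separated groups (background 0.58%), with a median of -0.49 at 54 µg and 0.01 at 18 µg. Mki67, the proliferation marker Ki-67, stood at -3.61, -3.55, -3.42, -3.39 and -4.38 against -2.26, -3.16, -2.85, -2.71 and -2.55. The groups did not overlap, and the difference was -0.97 (SE 0.35, adjusted p = 0.60). Ccnb1 (cyclin B1) differed by -0.69 (SE 0.21), with its probes between -0.69 and -0.19, Aurka by -0.50 (SE 0.16) and Top2a by -0.83 (SE 0.29). In controls Mki67 averaged -3.61 ± 0.51 (SD, n = 5). The 15 became 7 without replicate 4 of NRCWE-044, 7 without replicate 35 of NRCWE-045 and 2 with heart and adipose scores as covariates. Over all features, in either direction, 1542 became 1144, 1023 and 826.

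Genes of the unfolded protein response, the chaperones and sensors of the endoplasmic reticulum, had lower estimates in 21 of 23 cases, 10 with an unadjusted p under 0.05 (background 2.7%) and 4 with separated groups (background 0.58%), with a median of -0.20 (-0.15 at 18 µg). Sdf2l1, a component of the chaperone complex there, stood at -0.41, 0.10, -0.24, 0.34 and -0.97 against 0.86, 0.61, 0.55, 0.56 and 0.94. The difference was -0.94 (SE 0.22, adjusted p = 0.11), beside -0.26 at 18 µg. Calr, calreticulin, differed by -0.62 (SE 0.15, adjusted p = 0.13) with separated groups and Creld2 by -0.66 (SE 0.16, adjusted p = 0.14). Against the controls Sdf2l1 rose with NRCWE-044 by 1.85 (adjusted p = 9.5e-06), beside 0.91 (adjusted p = 0.052) with NRCWE-045. Leaving out single arrays moved the count of 10 between 8 and 11.

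Complement, monocyte and matrix genes had mostly lower estimates too. Of 19 complement genes 17 were lower, 7 with an unadjusted p under 0.05 (background 2.7%), with a median of -0.33 (0.14 at 18 µg). C3, the central component, stood at 3.86, 4.28, 3.96, 4.28 and 3.00 against 4.62, 4.64, 4.53, 4.54 and 4.62. The arrays of NRCWE-044 were nearly level and all above those of NRCWE-045, and the difference was -0.72 (SE 0.27, adjusted p = 0.66). Cfb, factor B of the alternative pathway, differed by -0.57 (SE 0.17, adjusted p = 0.38), beside 0.44 at 18 µg. The monocyte and interstitial macrophage list was lower in 14 of 14 cases, 5 with an unadjusted p under 0.05 (background 2.7%). Its receptor gene Ccr2 differed by -0.63 (SE 0.24), or by -0.41 without replicate 34 of NRCWE-044, and overlapped. In bulk lung, fewer cells of a type and less RNA per cell cannot be told apart.

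Arg1, arginase of alternatively activated macrophages, stood at 1.09, 2.36, 1.43, 2.09 and 0.86 against 4.09, 3.22, 2.29, 1.63 and 3.69, a difference of -1.41 (SE 0.35, adjusted p = 0.15). Replicates 24 and 31 of NRCWE-044 lay within the range of NRCWE-045. Among 22 genes of matrix and fibrosis 19 were lower, 9 with an unadjusted p under 0.05 (background 2.7%), and 2 were higher at that level (background 3.34%). The 9 became 5 without replicate 35 of NRCWE-045, where the count over all features, in either direction, went from 1542 to 1023. Lox, which crosslinks collagen and elastin, differed by -0.58 (SE 0.16, adjusted p = 0.25) and passed at 18 µg (-0.69, adjusted p = 0.04). Eln, elastin, differed by -0.66 (SE 0.24) and by -0.95 at 18 µg, and Fbn1, fibrillin, by -0.45 (SE 0.14) with separated groups. Timp1, an inhibitor of metalloproteinases, differed by -1.12 (SE 0.57) with overlap, or by -0.65 without replicate 35 of NRCWE-045. It rose against the controls with both materials (3.68 with NRCWE-044, adjusted p = 0.00014, and 2.56 with NRCWE-045, adjusted p = 0.038).

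**Figure D5:**
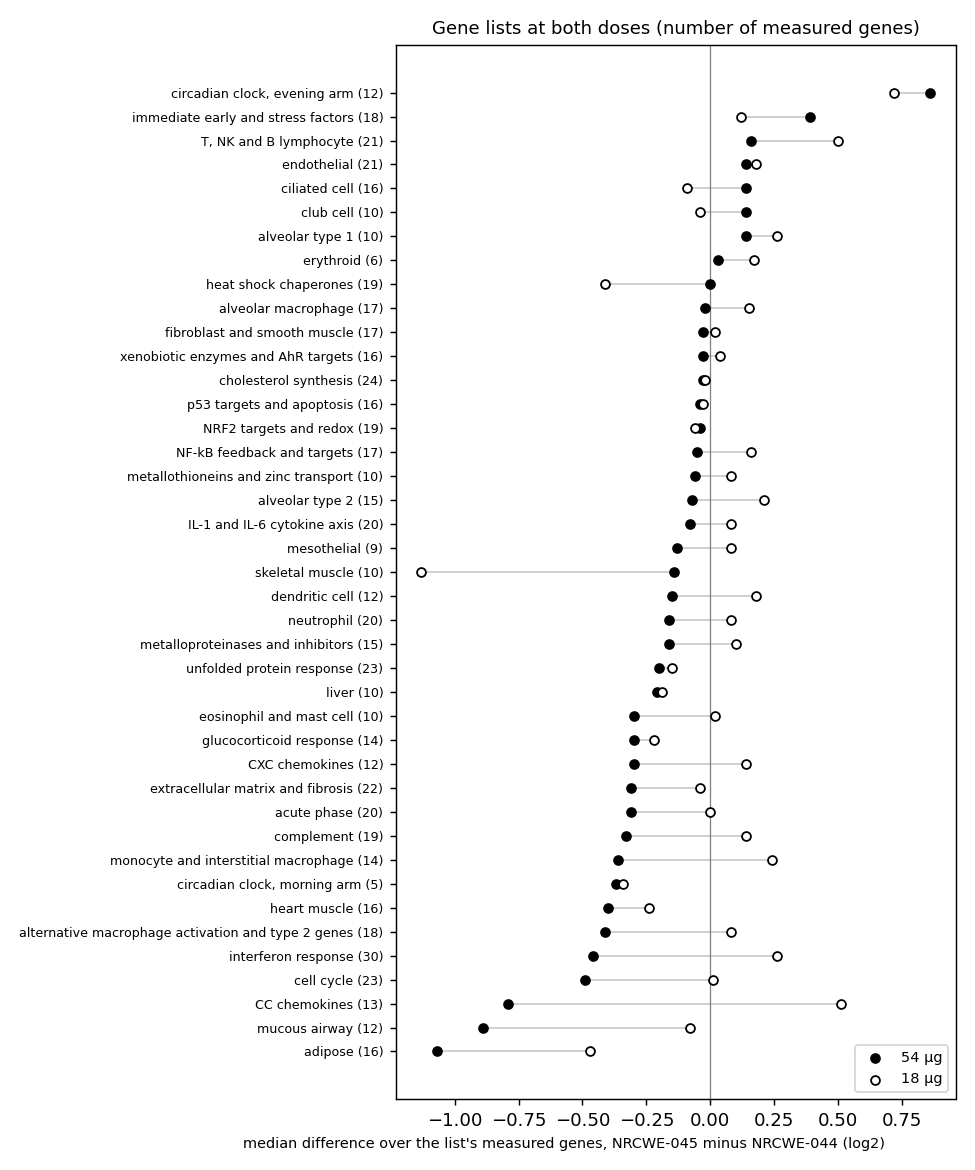
Median difference between NRCWE-045 and NRCWE-044 (log2) over the measured genes of each of 41 gene lists, with 54 µg as filled and 18 µg as open points. The evening arm of the clock is the highest at both doses (0.86 and 0.72), and CC chemokines (-0.79 and 0.51) and interferon response genes (-0.46 and 0.26) lie on opposite sides of 0 at the 2 doses.

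A set of features was also taken from the arrays of NRCWE-043 and the controls. Against the controls, 1366 features were higher (5.35%) and 1256 lower (4.92%) with 54 µg of NRCWE-043 at an adjusted p under 0.05. Of the 1366, 1033 (75.6%) were lower with NRCWE-045 than with NRCWE-044, 227 (16.6%) of them with an unadjusted p under 0.05 (background 2.7%), and 12 (0.878%) were higher at that level. Their median difference was -0.12 at 54 µg and 0.10 at 18 µg. Averaged over the 1366 features and set against the control mean, the arrays of NRCWE-044 stood at 0.55, 0.44, 0.41, 0.32 and 0.64 and those of NRCWE-045 at 0.31, 0.47, 0.27, 0.37 and 0.15. These ranges overlapped, with replicate 34 the highest and replicate 35 the lowest. For the 1256 lower features the median difference was -0.05, and 733 (58.4%) were lower with NRCWE-045. At an unadjusted p under 0.05, 29 of them (2.31%) were lower (background 2.7%) and 70 (5.57%) were higher (background 3.34%).

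Of the other cell types of the lung, several lists held no gene with an unadjusted p under 0.05 at 54 µg. There were 0 of 15 alveolar type 2 genes, 0 of 10 alveolar type 1 genes, 0 of 10 club cell genes, 0 of 16 ciliated cell genes and 0 of 21 lymphocyte genes. Such genes numbered 4 of 17 in the alveolar macrophage list and 3 of 17 in fibroblast and smooth muscle, against 6.04% of all features. They numbered 1 each of 21 endothelial, 12 dendritic cell and 12 mucous airway genes. The mucous airway genes were nonetheless lower with NRCWE-045 in 12 of 12 cases (50% of all features were), with a median of -0.89. With 1 array left out that median ran from -1.19 to -0.39, the latter without replicate 4 of NRCWE-044. Sftpc, surfactant protein C, differed by -0.17 (SE 0.23, 95% interval -0.63 to 0.28) and Scgb1a1, the secretoglobin of club cells, by -0.09 (SE 0.20, 95% interval -0.49 to 0.31). Cholesterol synthesis was likewise without a gene at that level among 24. Idi1, an enzyme of that pathway, differed by -0.05 (SE 0.13, 95% interval -0.31 to 0.22) and rose against the controls with both materials, by 0.69 with NRCWE-044 (adjusted p = 0.0011) and 0.64 with NRCWE-045 (adjusted p = 0.024). Slc26a4, the anion exchanger pendrin of stimulated airway epithelium, differed by -1.01 (SE 0.74, 95% interval -2.51 to 0.50). The 16 adipose genes, lower in 14 cases with a median of -1.07, had 9 genes with an unadjusted p under 0.05, 1 without replicate 4 and 0 without replicate 34 of NRCWE-044. Over all features, in either direction, 1542 became 1144 and 1111.

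How each result moved with the fat and heart markers was set out by leaving out replicates 4, 18 and 34 of NRCWE-044, which left 2 arrays of that group. The evening arm then had 8 genes with an unadjusted p under 0.05, immediate early factors 5, the acute phase 9 and the unfolded protein response 6, and CC chemokines had 0 and the cell cycle 2. Across all 25534 features the number at that level, in either direction, also fell, from 1542 in the main fit to 762. The list counts were not tested against that general fall. The part of these tissues in the remaining differences was not tested further. With median centring in place of loess, 9 genes of the evening arm and 7 immediate early factors were at that level, and 3 interferon, 4 cell cycle, 2 unfolded protein, 2 CC chemokine and 1 matrix gene. That normalization left 405 features in total at that level. With the clock score as a covariate, 3 cell cycle, 4 unfolded protein, 3 CC chemokine, 5 acute phase and 1 matrix gene were, and the interferon count stayed at 17. That covariate left 876 features in total at that level.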

How the data were processed

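Lung RNA was measured on 35 2-colour arrays, Cy5 for lung and Cy3 for the reference, with 5 arrays in each of 7 groups. Per the file headers, the authors' scanner files came from Agilent Feature Extraction 11.0.1.1 and hold spot intensities; the median intensity and background of each channel were used. The deposited series values, log2 ratios, served as an alternative. Intensities were background-corrected (normexp, offset 50) and loess-normalized within arrays, control and marked spots having weight 0, in limma 3.58.1 (R 4.3.3). Spots of a probe were averaged, and probes were kept where 3 or more of a group's 5 arrays had Cy5 signal marked well above background. The brightest probe stood for a gene. A 7-group linear model with empirical Bayes variances gave the differences, with Benjamini-Hochberg adjustment over 25534 features, and the test was checked on simulated data. Slides came from the headers.

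The members, gene lists and tests were chosen with earlier results of these data known. Genes were named by a rule: the 12 largest separated differences each way, up to 3 genes with the smallest p of each of 41 lists, and 24 further genes. Not all genes the rule names are described. Alternatives covered background correction, normalization, filters, probes, slides, arrays left out, weights and covariates. Promoters were matched by symbol to RefSeq windows (GRCm38.p6).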

Additional observations from a re-analysis of the deposited data

Results flagged for a closer look

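Each of the 74 genes described was screened in both groups of 5 arrays at 54 µg for an array standing apart from the other 4, which makes 148 screens. Of these 10 stood out, where chance gives about 1 in 20. With NRCWE-045, replicate 32 was the lowest for Arntl (-2.12, the others -1.31 to -1) and Maff (-0.53, the others -0.22 to -0.11) and the highest for the heart genes Tnnt2 (1.75, the others -1.84 to -0.92) and Sln (5.15, the others -0.09 to 1.27). Replicate 14 was the highest for Cdkn1a (-0.25, the others -0.92 to -0.75). Replicate 35 was the lowest for Mki67 (-4.38, the others -3.61 to -3.39) and Serpina3n (2.30, the others 3.66 to 4.02). With NRCWE-044, replicate 24 was the lowest for Creld2 (-0.12, the others 0.19 to 0.25), replicate 34 the highest for Irf7 (1.30, the others 0.05 to 0.32) and replicate 31 the lowest for Il6 (-1.65, the others -0.94 to -0.70).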

How the results depend on the processing

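The count of features at 54 µg was 8 with the deposited ratios, 3 with Cy5 alone, 9 with the stricter filter, 1 with probe means, 18 with slide as a random block, 2 on the 4 shared slides, 33 with only the arrays compared, 29 with only the treated arrays and 65 with array weights, and 0 to 12 with 1 array left out. At 18 µg it was 197 with processed signals, 0 with median centring, 221 with Cy5 alone, 285 with the random block, 7 on the 4 slides, 44 with only the arrays compared, 187 with array weights and 1 with the clock score, and 30 to 156 with 1 array left out. For the dose difference it was 1 with the deposited ratios, the random block and array weights, 4 on the 4 slides, and 0 to 1 with 1 array left out. The share of higher calls at 18 µg was 80.7%, 61.5% with array weights and 57.1% on the 4 slides. Without replicate 23 of NRCWE-044 that share was 59.2%. In the other settings run these counts stayed within 1.5 times. No paired analysis was possible because no groups share a replicate number, other than the pairing by slide on the 4 shared slides, given above. With median centring, 405 features had an unadjusted p under 0.05 at 54 µg, and interferon, cell cycle and unfolded protein genes at that level numbered 3, 4 and 2. Of 2366 gene values, 2265 kept direction and side, 71 passed the threshold and 30 reversed. Those that reversed were Il1b (0.01 with processed signals, 0.37 without the 3 NRCWE-044 arrays with heart or adipose markers, 0.23 also without replicate 32, 0.09 with tissue scores, 0.06 and 0.19 without replicates 28 and 34), Il6 (0.09 with Cy5, 0.21, 0.05 and 0.06 with the same 3 tissue settings, 0.06 without replicate 35), Tnnt2 (0.62 and 0.01) and Sln (1.13 and 0.15) without those arrays, Cxcl1 (0.04 on the 4 slides), and Idi1 (0.13), Scgb1a1 (0.09) and Sftpc (0) with median centring. Scgb1a1 and Sftpc gave 0.05 and 0.04 with Cy5. Without replicate 31, Idi1, Scgb1a1 and Sftpc gave 0, 0.09 and 0.04. With the clock score, added after seeing the data and itself made from these clock genes, Dbp gave -0.24, Nr1d1 -0.62, Arntl 0.03, Nfil3 0.18, Cdkn1a 0.42 and Scgb1a1 0.03. With 1 array left out, Il1b ran from -0.26 to 0.19, Il6 from -0.28 to 0.06, Idi1 from -0.09 to 0, Scgb1a1 from -0.21 to 0.09 and Sftpc from -0.32 to 0.04. Except where a setting itself removes arrays, the cause was not tested. With 5 arrays a group, no difference passed limma's adjusted test in the main fit at 54 µg. Dbp, at 7.47-fold, had an adjusted p of 0.09 in it. That fit pooled the spread of all 7 groups. The SD of Dbp was 2.51 in controls, 0.81 with NRCWE-045 and 0.41 with NRCWE-044. Of the 74 genes described, 16 passed with only the arrays compared and 15 with only the treated arrays.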

Other observations

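Some gene lists had other medians at 18 µg than at 54 µg. Heat shock chaperones, which refold proteins after stress, were lower with NRCWE-045 at 18 µg in 16 of 19 cases (41.8% of all features were lower), 12 with an unadjusted p under 0.05 (background 4.56%), with a median of -0.41. At 54 µg the median was 0, and 1 gene was higher at that level. For 7 of 19 the difference between the doses had an unadjusted p under 0.05 (background 1.42%). At 18 µg 1 gene passed the adjusted test as lower (background 0.0862%). Lymphocyte markers were higher at 18 µg in 20 of 21 cases (58.2% of all features were). Of these, 12 had an unadjusted p under 0.05 (background 8.57%). The median of the list was 0.50, against 0.16 at 54 µg. For 0 of 21 did the difference between the doses reach an unadjusted p under 0.05. At 18 µg 1 lymphocyte gene passed the adjusted test as higher (background 0.36%). Skeletal muscle genes had a median of -1.13 at 18 µg and -0.14 at 54 µg. The 5 arrays of NRCWE-044 at 18 µg had list means from -1.27 to 4.87 with a median of -1, and no other group exceeded -0.73.

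At 54 µg 15 of 20 neutrophil genes were lower with NRCWE-045, 1 with an unadjusted p under 0.05 (background 2.7%), and 2 were higher at that level (background 3.34%), with a median of -0.16. Fpr1, the formyl peptide receptor that guides neutrophils to bacteria and damaged cells, stood at 3.06, 2.30, 3.23, 3.07 and 3.70 with NRCWE-045 against 1.34, 2.21, 2.11, 2.44 and 2.34. Replicate 14 of NRCWE-045 lay within the range of NRCWE-044, and the difference was 0.98 (SE 0.30, adjusted p = 0.41). Ltf, lactoferrin of neutrophil granules and of glands, differed by -1.53 (SE 0.58), or by -0.99 without replicate 4 of NRCWE-044, and reached 6.07 on replicate 4 of NRCWE-044, beside 3.86 or less on the other 9 arrays. That array was also the highest for the mucous airway genes (mean of 12 genes 4.84, against at most 3.02) and for Agr2, a chaperone of mucus-making cells (6.40, against at most 2.90). Their part in the difference was not tested. The zinc transporter Slc39a14 had separated groups (-0.55, SE 0.15, adjusted p = 0.28), and metallothionein Mt2 differed by -0.84 (SE 0.38).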
